A study of Mus musculus with 8 samples.

Results

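The genes described here are 10 genes of polyamine metabolism, Amd1, Amd2, Odc1, Srm, Sms, Sat1, Smox, Azin1, Oaz1 and Oaz2, measured by RNA sequencing of mouse quadriceps femoris (QF) muscle. They were taken by symbol from the table of 14012 genes, and all 10 had counts in all 8 libraries. They were chosen with the difference between the groups known, so that difference is given below as a description. Where a member is said to pass a threshold, this is read from the fit over all genes and is not independent evidence. The groups were 4 libraries labelled skeletal muscle-specific Grpel1 knockout (Grpel1 skm-/-) and 4 libraries labelled Grpel1 flox/flox control, each from a separate mouse. Both groups carried floxed alleles of Grpel1, which encodes a co-chaperone of the mitochondrial protein import motor. In the knockout mice a tamoxifen-inducible Cre recombinase was driven by the human skeletal actin promoter, which acts in muscle fibres, and tamoxifen was given on 5 consecutive days from 5 weeks of age. The age at sampling and any tamoxifen given to the mice behind the control libraries were not stated for these libraries in the sources used here.

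Polyamines are small positively charged molecules that bind nucleic acids and are needed for growth and translation. Ornithine decarboxylase makes putrescine from ornithine, and S-adenosylmethionine decarboxylase makes the aminopropyl donor that spermidine synthase and spermine synthase add to build spermidine and then spermine. Spermine oxidase and spermidine/spermine acetyltransferase run the chain backwards, while antizymes inhibit and degrade ornithine decarboxylase and the antizyme inhibitor frees it. Skeletal muscle is known for abundant transcripts of Amd1, Odc1 and Smox, which respond to androgens and to atrophy.

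Total counts ran from 16017565 to 20361144 per library. Deposited counts of Grpel1 itself, before scaling, were 861 to 1087 in the control libraries and 1461 to 1658 in the knockout libraries. After TMM scaling, explained below, the groups overlapped, so groups are named by their labels throughout. CPM (library-scaled counts) of Grpel1 were 64.1 to 71.2 in the control libraries and 59.9 to 71.9 in the knockout libraries. The authors reported reduced GRPEL1 protein in QF muscle of the knockout mice, by immunoblot and immunostaining. CPM, the counts divided by library size in units of 1e6, were scaled by trimmed mean of M-values (TMM) factors, which lay at 0.747 to 0.844 in the control libraries and at 1.19 to 1.33 in the knockout libraries. The muscle fibre markers were present in every library, but their sum was 193708 to 247192 CPM in the control libraries and 69707 to 98012 CPM in the knockout libraries. With library totals alone as the scale, the median log2 fold change over all genes moved from 0.07 to 0.73. Grpel1 was then higher in the knockout libraries, at a log2 fold change of 0.61 (edgeR adjusted p = 0.000171). Values below are given on the TMM scale. In bulk muscle, fewer cells of a type and less RNA per cell cannot be told apart.

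Amd1 and Amd2 both encode S-adenosylmethionine decarboxylase, and their sequences are shown because they bear on how their counts can be read. Amd1 has 8 exons in its longest coding transcript, whereas Amd2 has 1 exon. The transcripts were identical at 3190 of 3204 aligned bases (99.6%), and the coding sequences differed at 1 of 1002 bases. That base lies at position 796, counted from the first base of the coding sequence (G796C, Amd1 base first). The 60 coding bases around it, from position 766 to 825, read as follows, with the differing base in capitals.

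Amd1: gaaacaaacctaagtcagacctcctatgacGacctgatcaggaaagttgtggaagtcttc

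Amd2: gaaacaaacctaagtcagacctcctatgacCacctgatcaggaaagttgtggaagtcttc

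Of the 75-base windows of the Amd1 transcript, 79.6% occurred without a mismatch in Amd2. A 75-base read from such a stretch cannot be assigned to either gene by its own sequence, and the authors excluded reads that mapped to several places. The authors mapped read pairs, so a mate over a differing base may place such a read. The windows take single reads only, and the share of pairs left without a place was not measured. The counts of both genes are therefore uncertain, and the levels of Amd1 per length may be understated by an amount that was not measured. No such overlap concerned Smox or Srm, for which 0 of the windows occurred in another annotated transcript. For Oaz1, Odc1 and Sms the shares were 45.9%, 30.5% and 28.2%, shared with annotated transcripts that include pseudogenes, and for Sat1, Azin1 and Oaz2 they were 2.67%, 5.94% and 6.11%.

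The bases before the start sites, in contrast, did not resemble each other. The highest-scoring local alignment between the 250 bases before Amd1 (GRCm38, chr10:40302189-40302438, minus strand) and the 250 before Amd2 (chr10:35711892-35712141, minus strand) spanned 7 bases. They are printed with those of Smox (chr2:131491612-131491861, plus strand), the other member with a log2 fold change near that of Amd1. Sequences are from RefSeq for GRCm38.p6, which held 9 promoters for 8 of the 10 genes. Capitals mark short motifs searched on both strands. They were TATAA, the core of the TATA box, and the GC box, written GGGCGG. Also searched were a pair of E-boxes, of which the first was CACGTG. The second E-box, bound by muscle regulatory factors, was CAGCTG. The core of the cAMP response element was searched as TGACG. The last motif, bound by C/EBP and ATF proteins, was TGATGNAA.

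Amd1: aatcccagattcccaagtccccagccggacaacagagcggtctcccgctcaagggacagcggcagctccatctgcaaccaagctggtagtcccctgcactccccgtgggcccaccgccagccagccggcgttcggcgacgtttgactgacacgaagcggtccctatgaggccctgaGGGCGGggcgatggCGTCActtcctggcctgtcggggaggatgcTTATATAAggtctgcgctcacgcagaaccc

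Amd2: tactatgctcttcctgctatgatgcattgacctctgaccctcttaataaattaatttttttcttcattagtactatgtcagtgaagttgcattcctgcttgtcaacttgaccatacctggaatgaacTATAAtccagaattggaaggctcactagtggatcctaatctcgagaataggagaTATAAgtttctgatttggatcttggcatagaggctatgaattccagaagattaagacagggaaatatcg

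Smox: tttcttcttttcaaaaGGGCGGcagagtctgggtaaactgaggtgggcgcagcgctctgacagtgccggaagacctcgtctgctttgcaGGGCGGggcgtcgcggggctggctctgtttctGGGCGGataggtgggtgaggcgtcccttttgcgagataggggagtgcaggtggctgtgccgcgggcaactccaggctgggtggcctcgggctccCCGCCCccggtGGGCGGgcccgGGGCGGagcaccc

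The Amd1 stretch held TATAA between 27 and 23 bases before the start, overlapping a match on the other strand, with 1 GC box and 1 TGACG match further upstream. The Amd2 stretch was poorer in G and C, at 37.6% against 64.4% for Amd1, and held TATAA at 2 places but no GC box. Smox had 6 GC boxes and none of the other motifs. Over the 9 member promoters, 6 held a GC box, where 32.7% of all 32851 promoters did. TATAA was found in 2 of the 9 (22.8% of all), TGACG in 3 (17.8%) and CACGTG in 1 (6.02%). CAGCTG and TGATGNAA were in 0 of the 9, with 13% and 3.45% of all promoters holding them.

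The 10 genes did not move one way. In the fit over all genes, 6 were lower and 3 higher in the knockout libraries at the threshold of the study, an adjusted p under 0.01, and Oaz1 did not pass. At that threshold 44.7% of all genes were called, 21.1% lower and 23.6% higher. For each of the 10, every library of one group lay beyond every library of the other, 3 above and 7 below the controls. That held for 53.4% of all genes, 29% above and 24.4% below. The median log2 fold change of the 10 genes was -0.67, beside 0.07 for all genes.

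**Figure D1:**
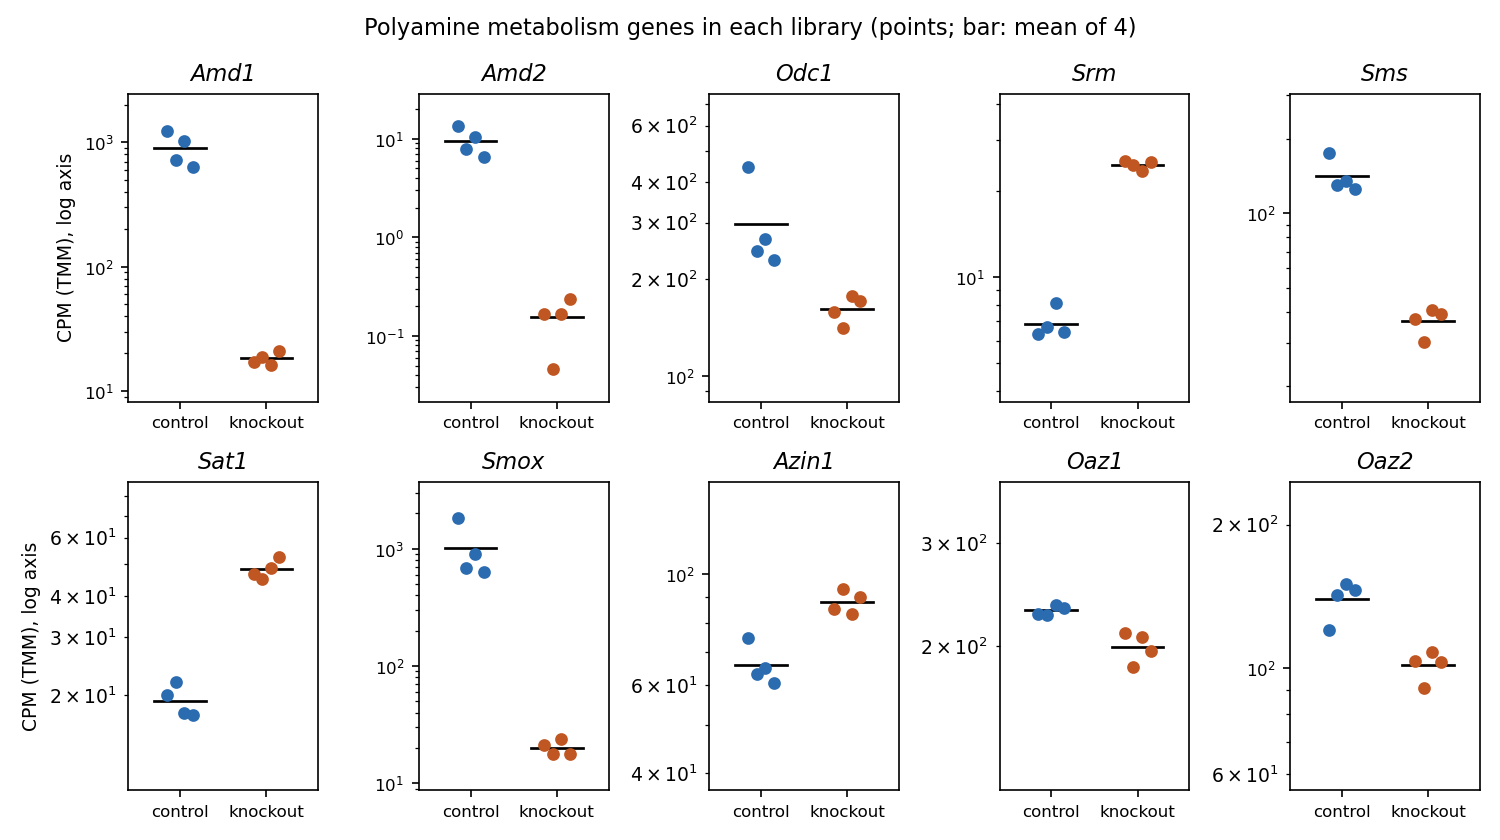
TMM-scaled CPM of each of the 10 genes in the 4 control and 4 knockout libraries, on a log axis that differs between panels. Points are libraries and bars the mean of 4. The groups were apart in every panel, with the widest gaps for Amd1, Amd2 and Smox.

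Amd1 (chr10:40287458-40302188) was among the genes with the lowest log2 fold changes in the table. Its counts were 15377, 11034, 14394 and 10004 in control libraries 1 to 4, and 410, 407, 394 and 525 in knockout libraries 1 to 4. The highest knockout library held 20.9 CPM and the lowest control library 630 CPM. Mean levels were 906 ± 282 CPM (SD, n = 4) in the control libraries and 18.2 ± 2.02 CPM (SD, n = 4) in the knockout libraries, a log2 fold change of -5.64 (SE 0.24). Only 7 of the 14012 genes had a lower one, Amd2 and Smox among them.

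Amd2 (chr10:35708691-35711891) followed Amd1 at a far lower level. It had 167, 120, 144 and 104 counts in the control libraries and 4, 1, 4 and 6 in the knockout libraries. A knockout library with 3 counts would be at 0.119 to 0.137 CPM, so the knockout values of 0.0458 to 0.238 CPM were near that limit. The fitted log2 fold change of -5.86 (SE 0.36) rests on these few counts. Amd2 took 1.04% of the pooled counts of the pair in the control libraries (535 of 51344; exact Clopper-Pearson 95% interval 0.956 to 1.13%) and 0.857% in the knockout libraries (15 of 1751; 0.480 to 1.41%). These intervals cover counting error only and overlap. How many of the Amd2 counts were reads of Amd1 placed on Amd2 was not measured. With both genes summed the log2 fold change was -5.64.

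**Figure D2:**
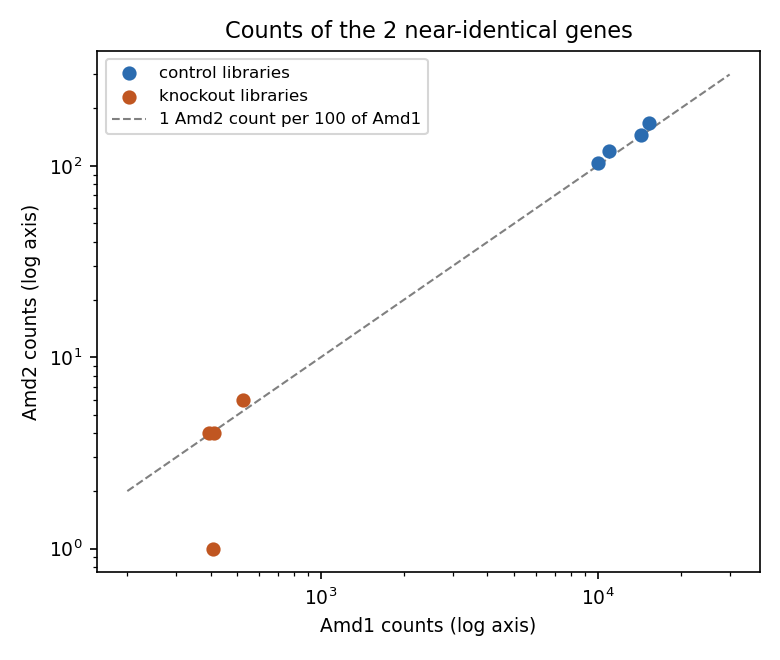
Raw counts of Amd2 against Amd1 in the 8 libraries, both on log axes. The dashed line marks 1 Amd2 count per 100 Amd1 counts, and the libraries of both groups lay along it except knockout library 2, with 1 Amd2 count beside 407 of Amd1.

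Odc1 (chr12:17544873-17551502), encoding the first enzyme of the pathway, was lower by much less. Control libraries 1 to 4 held 446, 245, 266 and 230 CPM, and knockout libraries 1 to 4 held 159, 141, 177 and 172 CPM. Control library 1 stood above the other 3, and the lowest control value remained above the highest knockout value. The log2 fold change was -0.87 (SE 0.19), and -0.61 without control library 1. It did not pass the threshold without knockout library 2, at -0.82, or on library totals alone, at -0.20.

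The synthases went opposite ways. Srm (chr4:148591513-148594619), spermidine synthase, was at 6.30, 6.68, 8.09 and 6.43 CPM in the control libraries and at 25.4, 24.6, 23.4 and 25.1 CPM in the knockout libraries. All 4 knockout values were close together and far above the controls, with a log2 fold change of 1.84 (SE 0.10). Sms (chrX:157443954-157492046), spermine synthase, was at 175, 131, 136 and 126 CPM in the control libraries and at 37.3, 30.2, 40.6 and 39.3 CPM in the knockout libraries, with a log2 fold change of -1.94 (SE 0.13). Per kilobase of exon (RPKM), the ratio of Srm to Sms ran from 0.0917 to 0.152 in the control libraries. It ran from 1.47 to 2.07 in the knockout libraries. In CPM, Sms stayed above Srm in both groups. Of the 75-base windows, 28.2% for Sms but 0 for Srm occurred in other annotated transcripts. Which of the 2 was higher per kilobase in the knockout libraries is therefore uncertain.

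The breakdown enzymes also parted. Smox (chr2:131491862-131525183), spermine oxidase, was at 1827, 689, 898 and 633 CPM in the control libraries and at 21.2, 17.6, 23.7 and 17.9 CPM in the knockout libraries. Its log2 fold change was -5.65 (SE 0.37), and -5.20 without control library 1, the highest of the 4. Sat1 (chrX:155213126-155216449), the acetyltransferase that starts the other route, was at 20.03, 21.9, 17.7 and 17.5 CPM in the control libraries and at 46.5, 44.8, 48.6 and 52.3 CPM in the knockout libraries. Its log2 fold change was 1.32 (SE 0.09). The RPKM ratio of Smox to Sat1 was 17.7 to 51.5 in the control libraries and 0.193 to 0.276 in the knockout libraries.

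The regulators of ornithine decarboxylase differed by the least. Azin1 (chr15:38487430-38519266), the antizyme inhibitor, was at 60.6 to 74.6 CPM in the control libraries and 83.2 to 93.6 CPM in the knockout libraries, a log2 fold change of 0.42 (SE 0.08). Oaz2 (chr9:65676548-65690300), an antizyme, was at 120 to 150 CPM and 90.9 to 108 CPM, a log2 fold change of -0.46 (SE 0.09). Oaz1 (chr10:80826656-80829290), the most abundant antizyme, held 226 to 235 CPM in the control libraries and 184 to 211 CPM in the knockout libraries. The Oaz1 log2 fold change of -0.20 (SE 0.07) did not pass the threshold, although the groups did not overlap. On library totals alone both antizymes changed sign, with log2 fold changes of 0.46 for Oaz1 and 0.20 for Oaz2. Oaz1 was then called higher and Oaz2 was not called. Relative to the median of all genes, which moves with the scaling, Oaz1 was at -0.27 and Oaz2 at -0.53. The other 8 genes kept their sign under both scalings. Levels of antizyme transcripts leave out the frameshift in translation by which polyamines raise antizyme protein.

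**Figure D3:**
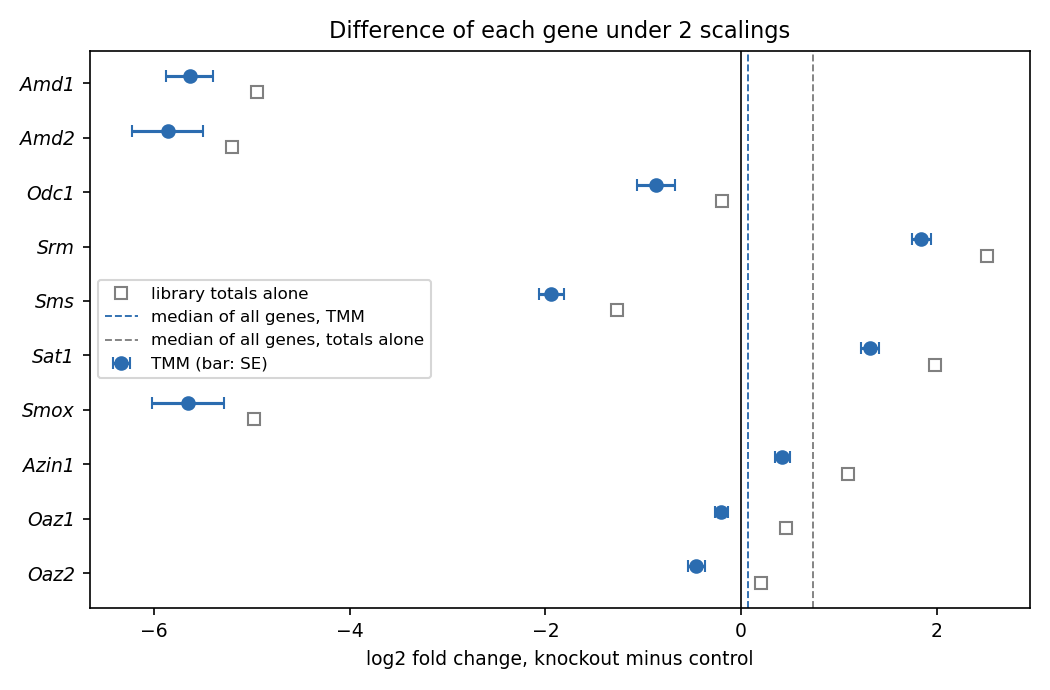
Log2 fold change (knockout minus control) of the 10 genes, with TMM scaling (filled points, bars are SE) and with library totals alone (open squares). Dashed lines mark the median of all genes under each scaling, 0.07 and 0.73, and Oaz1 and Oaz2 are the only members on different sides of 0 under the 2 scalings.

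The make-up of the group of genes was compared per transcript length. The summed RPKM of the 10 genes was 931 to 1737 in the control libraries and 370 to 421 in the knockout libraries. In the control libraries Smox held on average 35.1% of that sum, Amd1 23.2%, Oaz1 18.7% and Odc1 9.56%. In the knockout libraries Oaz1 held 46.1%, Odc1 15.8%, Oaz2 13.6% and Sat1 9.33%, while Smox and Amd1 held 2.2% and 1.41%. In the control libraries the range of Amd1, 197 to 387 RPKM, overlapped that of Smox, 280 to 808 RPKM, and that of Oaz1, 210 to 219 RPKM, while Smox lay above Oaz1. Within each control library Smox had the higher share of Smox and Amd1. Below these 3 genes, only Sat1 and Azin1 overlapped, at 13.7 to 17.2 and 11.7 to 14.4 RPKM. In the knockout libraries Oaz1 stood alone at 171 to 196 RPKM. There Odc1 overlapped Oaz2, Srm overlapped Azin1, and Sms overlapped Smox (8.95 to 12.02 and 7.79 to 10.5 RPKM). The RPKM ratio of Amd1 to Srm, whose products supply and use the same aminopropyl donor, was 40.6 to 81.7 in the control libraries and 0.278 to 0.344 in the knockout libraries. Of the 75-base windows, 81.9% for Amd1 but 0 for Srm occurred in other annotated transcripts, and multimapping reads were excluded, so which of the 2 was higher in the knockout libraries is uncertain. The shares of Amd1, Oaz1, Odc1 and Sms carry the same limit. For Odc1 and its positive regulator Azin1 the ratio was 7.72 to 12.2 and 3.07 to 4.33.

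**Figure D4:**
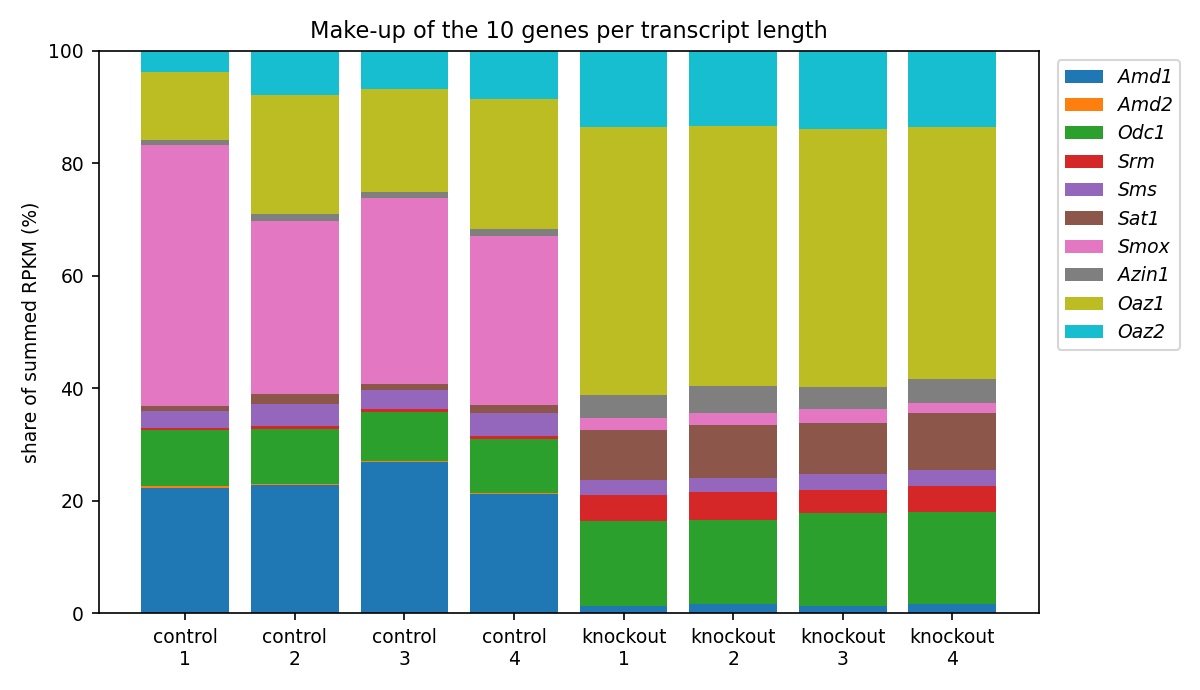
Share of each gene in the summed RPKM of the 10 genes, in percent, for each library. Smox and Amd1 fill most of the lower part in the control libraries and nearly vanish in the knockout libraries, where Oaz1 holds between 44.7 and 47.6%.

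In CPM, Amd1, Amd2, Odc1, Sms, Smox and Azin1 had the same order of control libraries, with library 1 highest, then 3, 2 and 4. That order was found for 8.05% of all genes. In the knockout libraries these 6 genes did not share an order. Odc1 and Sms had library 3 highest and library 2 lowest, whereas Amd1 had library 4 highest and library 3 lowest. The scaled library sizes that divide the counts ran the opposite way, at 12378359, 15275595, 13972867 and 15870014 for control libraries 1 to 4. Dividing by them alone favours this order. Raw counts of Amd1, Amd2 and Smox had the order too. Those of Odc1, Sms and Azin1 did not, with Azin1 at 923, 964, 910 and 961 in control libraries 1 to 4. The order is given as a description.

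Genes with the pattern most like that of Amd1 were sought among those with a mean count of at least 50, by Pearson's r of log2 CPM over the 8 libraries. The highest were Dnm3 (r = 0.999), Akr1b10 (0.998), Zfp24 (0.998), Fam53a (0.997) and Akr1b3 (0.997). Since the groups are far apart, r mostly reflects the difference between them. The r of deviations from the group means was 0.958 for Dnm3, 0.814 for Akr1b10, 0.909 for Zfp24, 0.838 for Fam53a and 0.818 for Akr1b3. These deviations are part of the r by which the genes were picked, so high values are no independent evidence. Raw counts of Dnm3 were 68, 74, 73 and 73 in control libraries 1 to 4, so its order there in CPM came from dividing by library size. Their log2 fold changes, from -1.72 for Akr1b10 to -0.86 for Akr1b3, were far smaller than that of Amd1.

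Outside these 10 genes, 38 genes of connected steps were listed, and 31 of them were in the table. Of these 31, 6 were higher and 10 lower in the knockout libraries by edgeR's quasi-likelihood test (Benjamini-Hochberg adjusted p under 0.01 over all genes), and 15 did not pass. Their median log2 fold change was 0.03, beside 0.07 for all genes. On library totals alone 18 were higher and 2 lower.

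Of the genes that supply ornithine and arginine, Aldh18a1, which starts proline and ornithine synthesis from glutamate, rose from 11.0 ± 1.33 to 83.8 ± 4.36 CPM (SD, n = 4), with a log2 fold change of 2.93 (SE 0.09, edgeR adjusted p = 3.8e-08). Gatm, which transfers the amidino group of arginine in creatine synthesis, rose by 2.18 (SE 0.34, edgeR adjusted p = 0.000384). Oat, which converts ornithine in mitochondria, fell from 208 ± 19.0 to 103 ± 11.3 CPM (SD, n = 4; log2 fold change -1.02, SE 0.10, edgeR adjusted p = 1.42e-05). The mitochondrial ornithine carrier gene Slc25a15 also fell, with a log2 fold change of -0.46 (SE 0.07, edgeR adjusted p = 0.000372), which became 0.21 on library totals alone. Arginase Arg1 had 0 or 1 count in each control library and did not pass. In the knockout libraries it stood at 0.208, 6.41, 0.124 and 0.199 CPM, so 1 library set its mean, and its log2 fold change of 6.16 (SE 2.19) became 2.92 without knockout library 2.

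Of 7 genes of S-adenosylmethionine supply and use in the table, 2 rose, 1 fell and 4 had no call. That is near the share of all genes called, 44.7%. Mat2a, a methionine adenosyltransferase whose gene overlaps Particl, had a log2 fold change of -0.12 (SE 0.16) and overlapping groups, and 0.038 without control library 1. Gnmt, a methyltransferase that consumes S-adenosylmethionine, rose from 0.797 ± 0.388 to 5.79 ± 3.76 CPM (SD, n = 4; log2 fold change 2.86, SE 0.53, edgeR adjusted p = 0.00111). The call for Ahcy, which hydrolyses S-adenosylhomocysteine (0.41, SE 0.10), was lost when any of 6 libraries was left out, and that for Mat2b (-0.29, SE 0.08, and 0.38 on library totals alone) when any of 7 was. Gamt, Mtr and Mtrr did not pass.

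Methylthioadenosine, the by-product of both synthases, is salvaged by the products of 5 listed genes. With TMM scaling 4 of the 5 fell, where 21.1% of all genes did, and Mri1 did not pass (log2 fold change 0.10, SE 0.11). Adi1 was the largest of them, from 83.5 ± 7.37 to 25.8 ± 4.605 CPM (SD, n = 4; log2 fold change -1.70, SE 0.13, edgeR adjusted p = 2.81e-06). Enoph1 fell by 0.64 (SE 0.09, edgeR adjusted p = 0.000225) and Mtap, the first enzyme of the route, by 0.58 on the log2 scale (SE 0.09, edgeR adjusted p = 0.000403). Apip was at -0.39 (SE 0.09), a call lost when any of 3 libraries was left out. On library totals alone Mtap, Enoph1 and Apip had positive log2 fold changes of 0.10, 0.034 and 0.28, and only Adi1 stayed below 0.

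Among the remaining breakdown and antizyme genes 0 of 5 passed in edgeR, with 1 at an unadjusted p under 0.05 and 1 called by DESeq2, Paox in both. Paox also passed in edgeR with upper-quartile factors (0.89), library totals alone (1.53) and the replicate block (0.83, all log2 fold changes), and without knockout library 3 or 4. Paox, a polyamine oxidase of peroxisomes, was just outside the threshold (log2 fold change 0.86, SE 0.23, edgeR adjusted p = 0.0101), with 1.93 to 2.88 CPM in the control libraries and 3.30 to 5.86 CPM in the knockout libraries. Sat2 and Aldh9a1 had overlapping groups, as had Oaz3 and Azin2, which stood below 3 CPM in every library.

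Hypusine, the modified lysine of eIF5A, is made from spermidine by Dhps and Dohh. Dhps rose from 18.5 ± 0.780 to 27.6 ± 3.29 CPM (SD, n = 4; log2 fold change 0.58, SE 0.09, edgeR adjusted p = 0.000442). It overlaps Wdr83 on the other strand. Dohh was lower by a little, with a log2 fold change of -0.24 (SE 0.07, edgeR adjusted p = 0.00984) that became 0.43 on library totals alone, and its call was lost when any of 7 libraries was left out. Eif5a was at 331 to 383 CPM in the control libraries and 395 to 412 CPM in the knockout libraries, without passing the threshold (log2 fold change 0.19, SE 0.07, edgeR adjusted p = 0.0422), and Eif5a2 did not pass either.

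Of 5 transport genes in the table, Atp13a3, a polyamine transporter of endosomes, rose from 45.6 ± 4.45 to 80.7 ± 2.76 CPM (SD, n = 4; log2 fold change 0.83, SE 0.08, edgeR adjusted p = 1.32e-05). Its relative Atp13a2, which exports polyamines from lysosomes, fell from 47.6 ± 2.66 to 29.9 ± 3.53 CPM (SD, n = 4; log2 fold change -0.67, SE 0.09, edgeR adjusted p = 0.000126). On library totals alone Atp13a2 was at -0.00083 and not called. Slc47a1 fell by 0.82 (SE 0.15, edgeR adjusted p = 0.000879), but was at -0.16 and not called on library totals alone. Slc18b1 and Slc22a3 had log2 fold changes of 0.00 and -0.05 with overlapping groups.

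**Figure D5:**
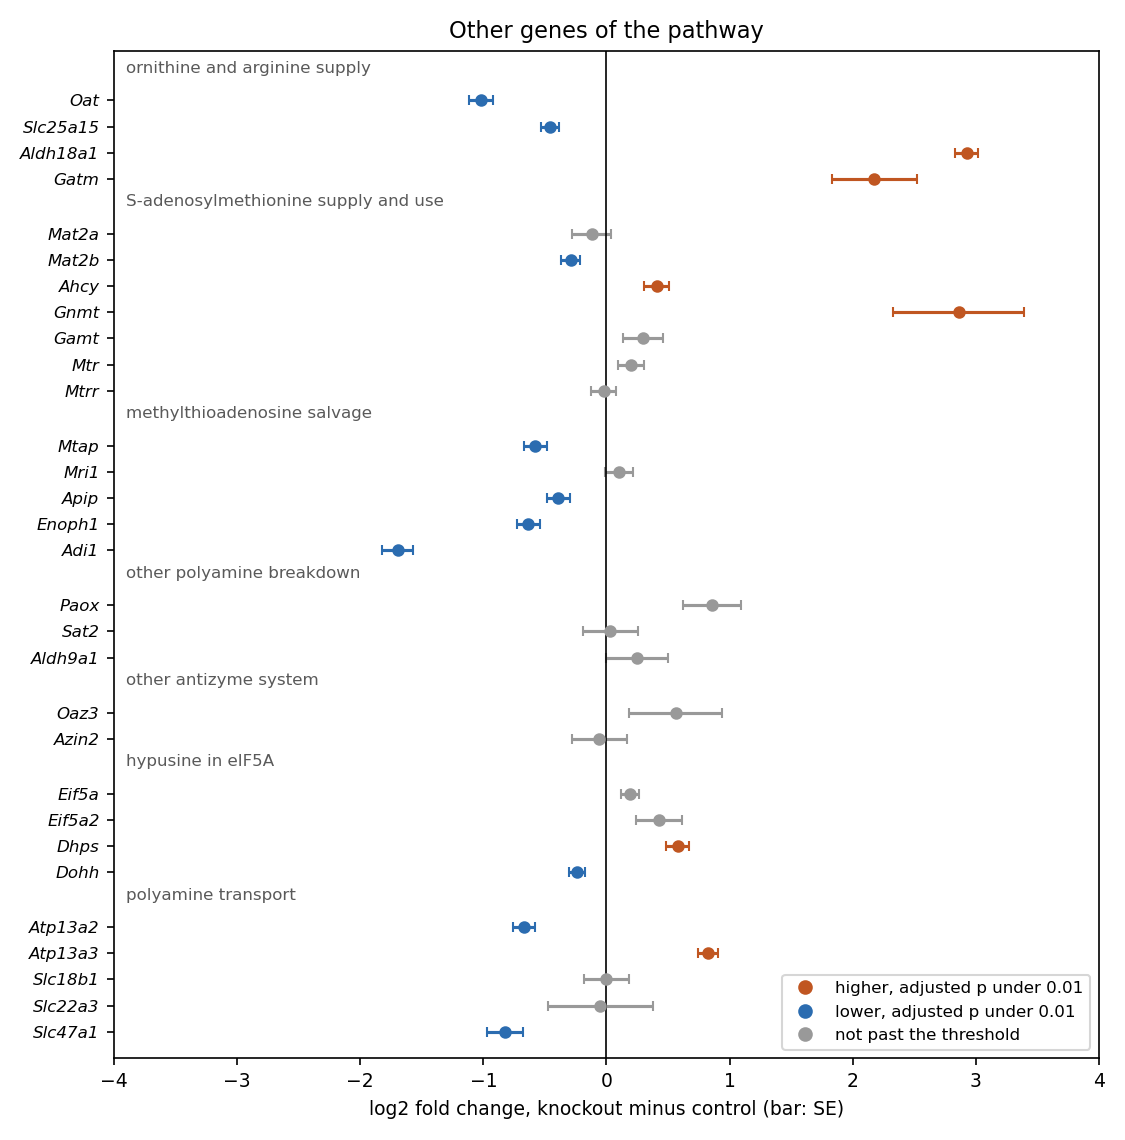
Log2 fold change (knockout minus control, bars are SE) of the other genes of the pathway, grouped by step. Arg1, which rests on 1 library, is left out, and coloured points passed the threshold. The methylthioadenosine salvage genes lie left of 0 with TMM scaling except Mri1, and Aldh18a1, Gatm and Gnmt lie farthest to the right.

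Marker genes of several cell types moved with the groups. Of 8 muscle fibre markers 5 fell and 2 rose, with log2 fold changes from -2.34 for the fast myosin Myh4 to 1.15 for Myh1. All 5 endothelial markers and 3 of 6 fibroblast markers fell on the TMM scale, where 21.1% of all genes fell and 23.6% rose. Endothelial sums were 245 to 360 CPM in the control libraries and 175 to 198 CPM in the knockout libraries. Fibroblast sums were 1338 to 1851 and 540 to 792 CPM. Endothelial log2 fold changes were -0.82 to -0.63, while library totals alone moved the median of all genes from 0.07 to 0.73. Marker values on library totals alone are not given here. Of 8 macrophage markers only Cd68 passed the threshold, and it was higher. The others had positive log2 fold changes too, from 0.46 for Mrc1 to 1.02 for C1qa. The macrophage sum was 38.9 to 98.9 CPM in the control libraries and 88.3 to 158 CPM in the knockout libraries. Satellite cell markers numbered 3 higher and 1 lower of 5, and 1 of 5 Schwann cell markers, Ncam1, was higher. Adipocyte markers had 1 of 6 lower, erythroid markers 0 of 4 either way (edgeR; 0 at an unadjusted p under 0.05 and 0 by DESeq2), and of T cell markers 2 of 5 were in the table, with Cd3e lower. No marker in the table was at 0 in any library. The part of these cell types in the levels of the polyamine genes was not tested.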

How the data were processed

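Polyadenylated RNA of QF muscle was sequenced by the authors as strand-specific libraries, 1 per mouse. The submitters' processing notes name bcl2fastq 2.20.0.422, cutadapt, STAR 2.5.4b, DESeq2 1.32.0 and GRCm38. The deposited raw counts per gene were used. The authors had excluded duplicate, chimeric and multimapping reads and genes under 50 reads in total, and whether counting used the strand is not given in the sources used here. Columns with the authors' own FPKM values and test results were not used. Groups came from the labels. Counts were fitted in R 4.3.3 with edgeR 4.0.16 (TMM factors, quasi-likelihood test, Benjamini-Hochberg adjustment over 14012 genes, threshold 0.01) and limma 3.58.1, with no further filter. DESeq2 1.42.0, other scalings, a count filter, a replicate block, an adipocyte covariate and leaving out each library were alternatives. RPKM used the deposited exon lengths. On simulated data for this contrast with 13268 genes, 98% and 79% of genes changed by a log2 of 2 and 1 were recovered. There 100 genes were changed by each amount, as many up as down, and all libraries had the control make-up otherwise. The simulation therefore left out the shift in make-up between the groups. Members and lists were chosen with earlier results of these data known. The text names all members, Grpel1, genes of the pathway lists, the 5 genes most like Amd1 and marker genes where needed.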

Additional observations from a re-analysis of the deposited data

Results flagged for a closer look

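Among 84 groups of 4 libraries (42 genes, each in both groups), 5 had 1 library set apart from the other 3 by more than Dixon's 95% limit, where chance gives about 1 in 20. Odc1 was at 446 CPM in control library 1, with the next library at 266 CPM. Arg1 was at 6.41 CPM (140 counts) in knockout library 2, with the next at 0.208 CPM, and at 0.0655 CPM in control library 2, which is 1 count where the other control libraries had 0. Aldh18a1 was at 77.3 CPM in knockout library 2, below the next at 85.4 CPM. Azin2 was at 2.91 CPM in control library 1, with the next at 1.89 CPM.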

How the results depend on the processing

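With library totals alone, 8498 genes of the whole table were called higher and 873 lower, against 3303 and 2962 with TMM, and 18 and 2 of the other pathway genes. Under that setting the log2 fold change changed sign for Oaz1 (0.46), Oaz2 (0.20), Slc25a15 (0.21), Mat2b (0.38), Mtap (0.10), Apip (0.28), Enoph1 (0.034), Dohh (0.43), Grpel1 (0.61), Mat2a (0.56) and Azin2 (0.60), and Odc1 was at -0.20 without passing the threshold. Without control replicate 1, Mat2a was at 0.038 and Azin2 at 0.14. Leaving out each library in turn, Mat2a ranged from -0.26 to 0.038 and Azin2 from -0.20 to 0.14. Requiring at least 2-fold left 1378 genes higher and 1078 lower. DESeq2 also called Oaz1 lower (-0.25). Members called were 4 higher and 4 lower on library totals alone, where Oaz1 was called higher and Odc1 and Oaz2 were not called. They stayed at 3 higher and 6 lower with RLE or upper-quartile factors, the count filter, the adipocyte covariate and the replicate block. Deviations of same-numbered libraries correlated at 0.213, 0.0351, 0.512 and 0.163 over genes, and not every library correlated best with its own number, so the numbers were not taken as pairs. With the replicate block 3215 genes were higher and 2908 lower, and the other pathway genes were 8 higher and 8 lower. Among these genes most calls lost in any setting were those of Mat2b, Dohh, Ahcy and Apip. Few counts limit Amd2 in the knockout libraries and Arg1 in the control libraries.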
